A study of Homo sapiens with 39 samples.

Results

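Nucleotides are made from small precursors by a short set of enzymes, and 10 of the genes that encode them are described here: PRPS1, PRPS2, PPAT, GART, PAICS, ATIC, IMPDH2, CAD, UMPS and CTPS1. They were taken by symbol through their Ensembl IDs from a matrix of 15808 gene IDs, each of the 10 had 1 row, and all 10 were among the 12814 genes that passed the filter on low counts. The RNA came from 4 lines of human B cell lymphoma in culture, in 39 libraries. DOHH2 and Toledo are regarded as lines of the germinal centre B cell type, and OCILy10 and TMD8 as lines of the activated B cell type. Each line was treated for 6 h with NEO2734 (an inhibitor of the bromodomains of the BET proteins and of the acetyltransferases CBP and p300), with OTX015 (birabresib, an inhibitor of BET bromodomains) or with DMSO, the vehicle. OCILy10 was also treated with CB103, an inhibitor of the Notch transcription complex. Each of these 13 groups had 3 libraries, and no group carried an engineered allele per the labels. No dose is stated for any compound, so NEO2734 and OTX015 are set side by side at unknown doses. A protocol text shared by all samples names other compounds and a longer exposure, and the treatment and time on each sample's own label were used. The labels do not tell whether replicates were separate cultures, and p-values measure only the spread between libraries, which may be technical.

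Ribose phosphate is activated by the PRPS enzymes, and purines are then built on it step by step until ATIC closes the ring and yields inosine monophosphate, from which IMPDH2 opens the branch to guanine nucleotides. Pyrimidines are built the other way round: CAD and DHODH first make the ring as orotate, UMPS joins it to the activated ribose, and CTPS1 turns the uridine nucleotide into the cytidine nucleotide. Proliferating lymphocytes make nucleotides by these routes at a high rate, IMPDH2 is the target of mycophenolic acid, and loss of CTPS1 in people limits lymphocyte proliferation. Several of the genes are textbook targets of the transcription factor MYC, which binds the letters CACGTG together with its partner MAX, and MYC in turn is a gene whose expression BET inhibitors are known to lower in many blood cancer lines.

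Levels are in CPM, a gene's counts relative to the scaled total of its library. Library totals ranged from 1000281 to 11668542 counts and fell into 15 deep libraries of at least 6670250 counts and 24 shallow ones of at most 3420458 counts. Every group had 1 deep library, except that OCILy10 NEO2734 and OCILy10 DMSO had 2 each. PAICS, GART and IMPDH2 were higher in every deep library than in every shallow library of the same group in 13 of 13 groups, with median ratios of 2.20, 1.70 and 1.64, while ATIC, PRPS1 and PRPS2 had median ratios of 0.943, 0.903 and 0.847. Over all 12814 genes the median size of this difference was 0.42 on the log2 scale, so results are also given from a fit with the depth set as a term. In 36 libraries, genes seen in 1 line alone stood at 0 to 2.29% of their level when they were genes of another line. These genes were chosen in the same 36 libraries for being high in 1 line and low in the others. The low shares there thus follow largely from the choice. The other 3 libraries held more: Toledo DMSO replicate 2 showed OCILy10 genes at 74.1% and Toledo genes at 41.3%, in OCILy10 CB103 replicate 2 the Toledo genes reached 29.8%, and DOHH2 NEO2734 replicate 3 held the genes of OCILy10 at 11.5%, and the members' averaged changes that passed the test are given with and without these 3 libraries. The B cell markers MS4A1, CD79A, CD79B and PAX5 were each detected in all 39 libraries, with median levels of 579, 389, 150 and 228 CPM. Of the other lineages, CD2 of T cells reached at most 14.9 CPM and was at 0 in 25 libraries, and the monocyte genes LYZ and CSF1R summed to at most 4.79 CPM.

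The windows around the start sites of 4 of the genes are shown because ATIC and UMPS were the members called lower with both compounds, and because PPAT and PAICS are neighbours that start head to head and share their window while their levels did not move alike. Each runs 5′ to 3′ along the gene, from 250 bases before the start to 50 after it, as given by RefSeq on GRCh38.p14, and capitals mark CACGTG, which reads the same on both strands.
ATIC, chr2:215311809-215312108, plus strand: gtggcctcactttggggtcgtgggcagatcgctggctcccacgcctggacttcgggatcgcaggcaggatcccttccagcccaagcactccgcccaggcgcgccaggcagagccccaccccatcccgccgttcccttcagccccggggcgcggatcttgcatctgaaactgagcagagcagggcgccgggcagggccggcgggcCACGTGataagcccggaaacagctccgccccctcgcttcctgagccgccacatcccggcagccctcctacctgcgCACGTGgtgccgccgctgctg
UMPS, chr3:124730202-124730501, plus strand: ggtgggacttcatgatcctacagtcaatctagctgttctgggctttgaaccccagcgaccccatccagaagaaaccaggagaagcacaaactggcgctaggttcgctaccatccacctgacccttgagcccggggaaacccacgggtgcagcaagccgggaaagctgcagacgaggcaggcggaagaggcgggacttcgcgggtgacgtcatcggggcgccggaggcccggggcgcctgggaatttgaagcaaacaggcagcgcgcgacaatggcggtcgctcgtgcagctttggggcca
PPAT, chr4:56435566-56435865, minus strand: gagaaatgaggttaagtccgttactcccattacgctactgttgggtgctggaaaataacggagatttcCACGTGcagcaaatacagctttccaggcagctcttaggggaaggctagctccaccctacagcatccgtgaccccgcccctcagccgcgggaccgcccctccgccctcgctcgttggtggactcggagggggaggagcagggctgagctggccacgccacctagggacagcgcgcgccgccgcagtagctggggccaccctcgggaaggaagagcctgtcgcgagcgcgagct
PAICS, chr4:56435502-56435801, plus strand: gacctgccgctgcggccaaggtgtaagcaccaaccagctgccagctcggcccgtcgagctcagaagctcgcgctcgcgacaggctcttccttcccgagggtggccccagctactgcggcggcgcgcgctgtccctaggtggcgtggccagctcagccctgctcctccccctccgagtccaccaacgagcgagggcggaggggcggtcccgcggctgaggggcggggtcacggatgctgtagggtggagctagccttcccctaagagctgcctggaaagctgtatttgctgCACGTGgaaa
The ATIC window held the letters at 46 bases before and again at base 30 after the start, counting the start as base 1. The single match in the PPAT window, 182 bases before its start, is the same stretch of chromosome 4 as the match at base 41 after the PAICS start. No match lay in the windows of GART, CAD, UMPS, CTPS1, PRPS1 or PRPS2. In all, 9 of the genes matched 14 windows, since GART and PAICS have 3 and CTPS1 has 2. Of these 14 windows 3 (21.4%) held the letters, against 2548 of 35116 windows of all genes (7.3%). For other nucleotide genes only the first listed window of each gene was counted, and 3 of 31 held the letters (9.7%). That share is therefore not counted as the members' share is. Since the PPAT and PAICS windows hold 1 and the same site, the 3 windows of members hold 3 different sites, 2 of them in ATIC. A match describes the letters only, and whether MYC or any other factor binds there was not measured.

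With NEO2734, members of both the purine and the pyrimidine route were lower. Averaged over the 4 lines, ATIC, GART, UMPS and CTPS1 fell, and no member rose. The 4 calls among 10 members compare with 11.2% of all genes tested called lower and 9.29% called higher (edgeR quasi-likelihood test, Benjamini-Hochberg adjusted p under 0.05 over all genes). The median log2 fold change of the members was -0.38, against -0.02 over all genes. Without the 3 libraries that held genes of another line, 3 members were called with NEO2734 and 2 with OTX015. With OTX015, ATIC and UMPS fell and no member rose, against 6.06% of all genes called lower and 5.53% called higher, and the medians were -0.24 for the members and -0.03 for all genes. Both compounds are compared with the same DMSO libraries. Levels are relative to the library total, so fewer cells that express a gene and less of its RNA per cell cannot be told apart.

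**Figure D1:**
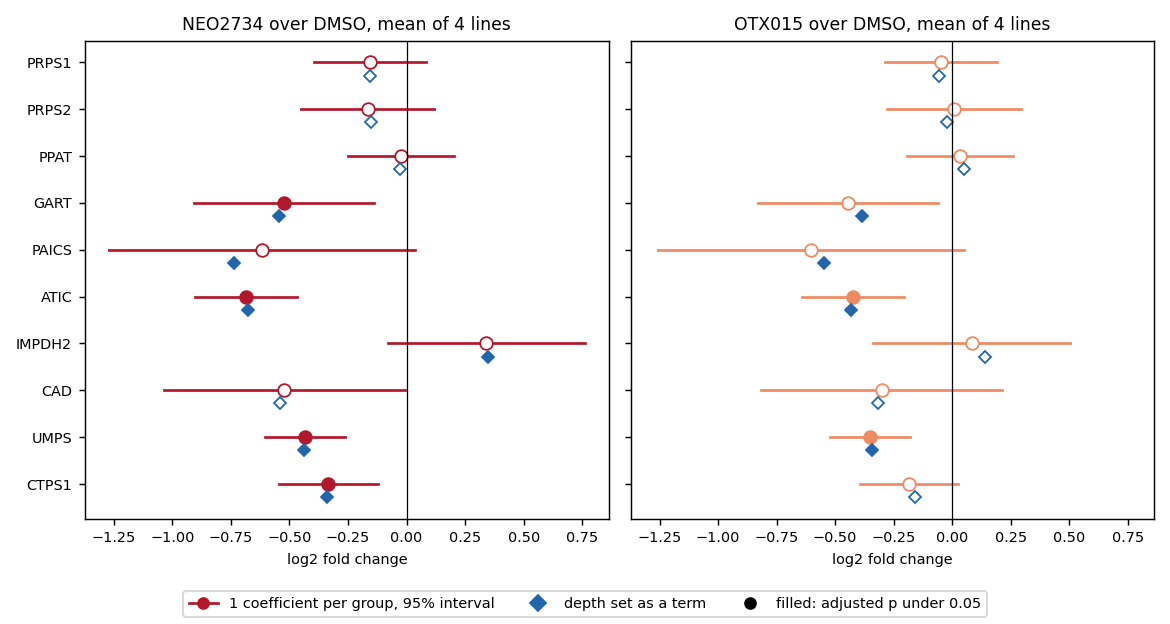
Log2 fold change of each gene with NEO2734 (left) and OTX015 (right) over DMSO, averaged over the 4 lines; circles with 95% intervals are from the fit with 1 coefficient per group, diamonds from the fit with the depth set as a term, and filled symbols have an adjusted p under 0.05. ATIC lies at -0.69 with NEO2734 and -0.43 with OTX015, and PAICS and IMPDH2 have a filled diamond beside an open circle with NEO2734.

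PRPS1 and PRPS2 (ENSG00000147224.9 and ENSG00000101911.11, both on chromosome X) encode the PRPP synthetases that activate ribose phosphate. Their averaged log2 fold changes with NEO2734 were -0.16 ± 0.12 and -0.17 ± 0.14 (SE, adjusted p = 0.417 and 0.490), and with OTX015 they were -0.05 ± 0.12 and 0.01 ± 0.14. PRPS1 stood at 272 ± 30.9 CPM in Toledo with NEO2734 and 75.0 ± 9.67 CPM in OCILy10 with NEO2734 (SD, n = 3 each). PRPS1 and PRPS2 are close copies of each other and 1 pseudogene of PRPS1 is also in the table, so reads may be split between them in a way that the deposited counts do not show.

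PPAT (ENSG00000128059.7, chr4:56393362-56435615, minus strand) encodes the amidotransferase that commits PRPP to purine synthesis. Its log2 fold changes were near 0, at -0.02 ± 0.11 with NEO2734 and 0.03 ± 0.11 with OTX015 (SE, adjusted p = 0.963 and 0.971). In DOHH2 its libraries lay between 84.6 and 101 CPM with NEO2734, against 109 and 119 CPM with DMSO, and in the other 3 lines the groups overlapped. PAICS (ENSG00000128050.7, chr4:56435741-56464579, plus strand), its neighbour, catalyses a carboxylation and the addition of aspartate further down the route. PAICS was lower with a wide error, at -0.62 ± 0.32 with NEO2734 and -0.60 ± 0.32 with OTX015 (adjusted p = 0.194 and 0.259), and at -0.55 and -0.62 without the 3 libraries that held genes of another line (adjusted p = 0.343 and 0.297).

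Its spread followed the depth of the libraries. The deep libraries with NEO2734 held 425 CPM of PAICS in DOHH2, 388 and 355 in OCILy10, 574 in TMD8 and 494 in Toledo, against 591, 635 and 536, 620, and 599 CPM in the deep DMSO libraries of the same lines. The shallow libraries with NEO2734 held 164 and 139 CPM in DOHH2, 173 in OCILy10, 172 and 114 in TMD8 and 116 and 150 in Toledo, against 226 and 319, 282, 306 and 260, and 400 and 245 CPM in the shallow DMSO libraries. Within each depth set, every NEO2734 library was below every DMSO library of its line in 4 of 4 lines, and the same held for OTX015. With the depth set as a term, PAICS fell by 0.74 on the log2 scale with NEO2734 (adjusted p = 4.7e-05) and by 0.55 with OTX015 (adjusted p = 0.00243). In that fit 16.6% of all genes were called lower and 13.9% higher with NEO2734, and 11% lower and 9.11% higher with OTX015. In OCILy10, where DMSO had 2 deep libraries and OTX015 had 1, the OTX015 value of PAICS was -0.83 in the fit by group and -0.38 with the depth term. Within the deep libraries alone the log2 fold change with NEO2734 was -0.40 (adjusted p = 0.159, 2 residual degrees of freedom), and within the shallow libraries alone -0.96 (adjusted p = 0.00285).

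**Figure D2:**
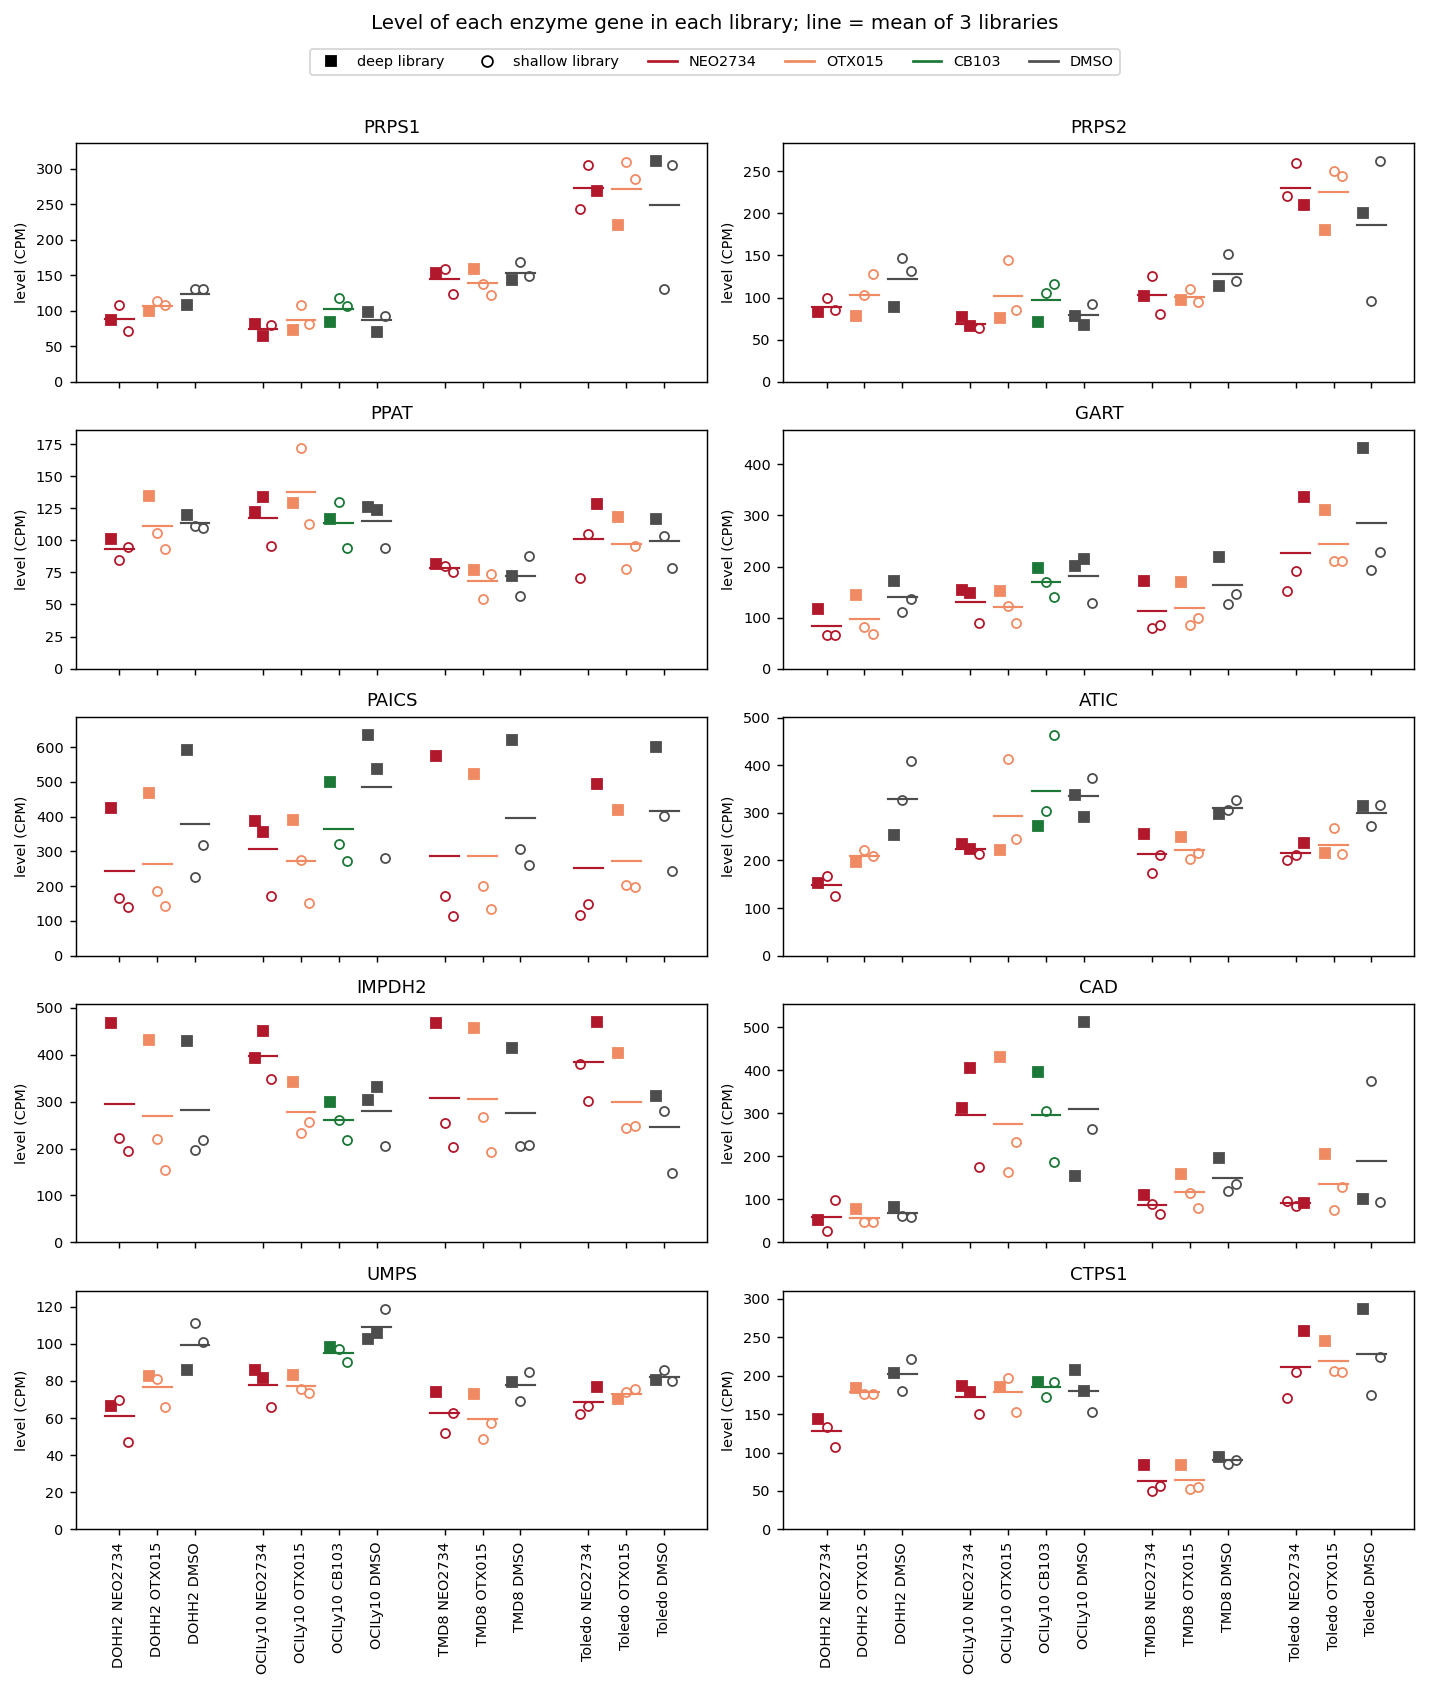
Level of each gene in CPM in each library, by line and treatment, with NEO2734, OTX015 and, for OCILy10, CB103 left of DMSO; filled squares are deep libraries, open circles shallow ones and lines the mean of 3 libraries. Deep libraries stand above shallow ones in every group for GART, PAICS and IMPDH2, and CTPS1 is lowest in TMD8 and PRPS1 and PRPS2 highest in Toledo.

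GART (ENSG00000159131.15, chr21:33503931-33543491, minus strand) encodes a protein that carries several early purine steps. Its libraries with NEO2734 were 117, 65.9 and 66.8 CPM in DOHH2 and 154, 148 and 88.8 CPM in OCILy10, against 172, 111 and 136 CPM and 201, 214 and 129 CPM with DMSO. With NEO2734 they were 172, 78.7 and 86.4 CPM in TMD8 and 152, 192 and 335 CPM in Toledo, against 219, 127 and 147 CPM and 432, 193 and 229 CPM with DMSO. Within each depth set every NEO2734 library of GART was below every DMSO library of its line in 4 of 4 lines, and every OTX015 library in 3 of 4, the exception being Toledo. The averaged change with NEO2734 was -0.52 ± 0.19 (adjusted p = 0.0467), and with OTX015 it was -0.45 ± 0.19 and did not pass (adjusted p = 0.133). With the depth set as a term GART fell with both, by 0.54 (adjusted p = 4.1e-06) and by 0.39 (adjusted p = 0.000752). Without that term the call with NEO2734 was lost when any of 15 of the 24 libraries was left out (adjusted p up to 0.136); it was kept without DOHH2 NEO2734 replicate 1 or DMSO replicate 2, OCILy10 NEO2734 replicate 1 or DMSO replicate 3, TMD8 NEO2734 replicate 1 or DMSO replicate 2, or Toledo NEO2734 replicate 3, DMSO replicate 2 or DMSO replicate 3. It was also lost without the 3 libraries that held genes of another line (-0.54, adjusted p = 0.0679). GART shares 275 exon bases with SON on the opposite strand, and since strand is not stated for the counting, reads of the 2 genes cannot be told apart there.

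ATIC (ENSG00000138363.13, chr2:215311817-215349773, plus strand) encodes the enzyme of the final steps to inosine monophosphate and showed the clearest change of the 10. In DOHH2 its libraries were 152, 168 and 126 CPM with NEO2734 and 196, 222 and 209 CPM with OTX015, against 253, 328 and 409 CPM with DMSO. In OCILy10 they were 234, 224 and 214 CPM with NEO2734 and 222, 414 and 244 CPM with OTX015, against 339, 291 and 374 CPM with DMSO. In these lines only OTX015 in OCILy10 overlapped DMSO, through its replicate 2. In TMD8 the values were 255, 173 and 212 CPM with NEO2734 and 249, 203 and 215 CPM with OTX015, against 298, 306 and 327 CPM with DMSO. In Toledo they were 202, 211 and 236 CPM with NEO2734 and 217, 269 and 213 CPM with OTX015, against 314, 272 and 316 CPM with DMSO. The NEO2734 and DMSO libraries thus stood apart in 4 of 4 lines and the OTX015 and DMSO libraries in 3 of 4. The averaged log2 fold change was -0.69 ± 0.11 with NEO2734 (0.622-fold, adjusted p = 2.7e-05) and -0.43 ± 0.11 with OTX015 (0.745-fold, adjusted p = 0.00798). Leaving out any 1 library left ATIC called with NEO2734 (adjusted p at most 0.000129). Without the 3 libraries that held genes of another line ATIC was at -0.67 with NEO2734 (adjusted p = 0.000217) and -0.44 with OTX015 (adjusted p = 0.0129). Within depth sets the values were -0.48 in deep libraries (adjusted p = 0.0871) and -0.84 in shallow ones (adjusted p = 0.00162) with NEO2734, and -0.43 (adjusted p = 0.183) and -0.47 (adjusted p = 0.0509) with OTX015.

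IMPDH2 (ENSG00000178035.10, chr3:49024325-49029408, minus strand), the enzyme that opens the branch to guanine nucleotides, had the highest log2 fold change of the 10 with each of the 2 compounds. Its libraries with NEO2734 were 392, 450 and 349 CPM in OCILy10 and 380, 301 and 470 CPM in Toledo, against 304, 331 and 205 CPM and 312, 279 and 148 CPM with DMSO. They were 468, 221 and 195 CPM in DOHH2 and 468, 255 and 203 CPM in TMD8, against 430, 197 and 219 CPM and 414, 206 and 208 CPM with DMSO. Only the OCILy10 groups stood apart. The averaged log2 fold change with NEO2734 was 0.34 ± 0.21 (adjusted p = 0.285), and 0.08 ± 0.21 with OTX015 (adjusted p = 0.925). Without the 3 libraries it was 0.43 with NEO2734 (adjusted p = 0.215) and 0.10 with OTX015 (adjusted p = 0.917). With the depth set as a term IMPDH2 rose with NEO2734, by 0.35 (adjusted p = 0.0128), and not with OTX015 (0.14, adjusted p = 0.408). IMPDH2 shares 93 exon bases with an antisense gene in the table, AC137630.3, whose reads may be counted with it.

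On the pyrimidine side, CAD (ENSG00000084774.12, chr2:27217390-27243943, plus strand) joins the first enzymes of the route in 1 protein. Its averaged log2 fold change was -0.52 ± 0.25 with NEO2734 (adjusted p = 0.156) and -0.30 ± 0.25 with OTX015 (adjusted p = 0.543). The value leaned on Toledo, where the libraries were 95.9, 84.4 and 92.6 CPM with NEO2734, against 100, 376 and 93.1 CPM with DMSO. The library at 376 CPM is the one that held genes of OCILy10, a line whose DMSO libraries were at 155, 513 and 265 CPM. The Toledo log2 fold change of CAD was -1.07 with it and -0.09 without the 3 libraries that held genes of another line, and the averaged value was -0.41 without them (adjusted p = 0.234). Without Toledo DMSO replicate 2 alone, the averaged CAD value was -0.28 with NEO2734 (adjusted p = 0.490) and -0.06 with OTX015 (adjusted p = 1.00). The same library was low for PRPS1 and PRPS2, at 130 and 95.9 CPM, against 311 and 305 CPM and 200 and 262 CPM in the other Toledo DMSO libraries. In DOHH2 NEO2734, replicate 3 held 99.2 CPM of CAD, against 52.1 and 27.4 CPM in the other libraries of that group. TMD8 was the line in which CAD groups stood apart, at 110, 89.7 and 65.0 CPM with NEO2734, against 196, 119 and 136 CPM with DMSO (log2 fold change -0.77 ± 0.51, adjusted p = 0.659).

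UMPS (ENSG00000114491.12, chr3:124730366-124749273, plus strand) makes the first complete pyrimidine nucleotide. In DOHH2 its libraries were 66.5, 69.7 and 47.2 CPM with NEO2734 and 82.8, 80.9 and 65.9 CPM with OTX015, against 85.9, 111 and 101 CPM with DMSO. In OCILy10 they were 86.1, 81.4 and 66.0 CPM with NEO2734 and 83.4, 75.4 and 73.3 CPM with OTX015, against 103, 106 and 119 CPM with DMSO. Neither compound overlapped DMSO in these lines. In TMD8 they were 73.9, 52.0 and 62.7 CPM with NEO2734 and 73.0, 48.8 and 57.4 CPM with OTX015, against 79.3, 69.2 and 84.6 CPM with DMSO, which overlapped through the deep libraries. In Toledo they were 62.2, 66.4 and 76.9 CPM with NEO2734 and 70.0, 73.8 and 75.4 CPM with OTX015, against 80.3, 86.0 and 79.8 CPM with DMSO, without overlap. The averaged log2 fold change was -0.44 ± 0.08 with NEO2734 (0.740-fold, adjusted p = 0.000313) and -0.35 ± 0.08 with OTX015 (0.784-fold, adjusted p = 0.00545). Without the same 3 libraries UMPS was at -0.38 with NEO2734 (adjusted p = 0.00265) and -0.35 with OTX015 (adjusted p = 0.00891). Within depth sets it was -0.23 in deep libraries (adjusted p = 0.325) and -0.63 in shallow ones (adjusted p = 0.00343) with NEO2734, and -0.18 (adjusted p = 0.499) and -0.48 (adjusted p = 0.0219) with OTX015.

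CTPS1 (ENSG00000171793.12, chr1:40979335-41012565, plus strand), the cytidine triphosphate synthetase that lymphocytes depend on, fell with NEO2734, with its lowest log2 fold changes in DOHH2 and TMD8. In DOHH2 its libraries were 143, 133 and 107 CPM with NEO2734 and 184, 176 and 176 CPM with OTX015, against 203, 180 and 222 CPM with DMSO. In TMD8 they were 83.7, 49.9 and 56.6 CPM with NEO2734 and 83.8, 52.4 and 54.7 CPM with OTX015, against 94.6, 85.3 and 89.9 CPM with DMSO. The NEO2734 libraries stood apart from DMSO in both lines, and the OTX015 libraries in TMD8 alone. In OCILy10 and Toledo the groups overlapped, with log2 fold changes of -0.07 and -0.11 with NEO2734. The averaged value was -0.33 ± 0.10 with NEO2734 (adjusted p = 0.0194) and -0.19 ± 0.10 with OTX015 (adjusted p = 0.285). Leaving out OCILy10 DMSO replicate 1 (adjusted p = 0.0510) or Toledo DMSO replicate 1 (adjusted p = 0.0594) ended the NEO2734 call, and without the 3 libraries it was -0.34 (adjusted p = 0.0264). Deep libraries alone gave -0.25 (adjusted p = 0.310) and shallow ones -0.39 (adjusted p = 0.0324).

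Taken 1 line at a time with 3 libraries a group, members passed the test in DOHH2 alone. There ATIC fell by 1.15 ± 0.22 (adjusted p = 0.00289) and UMPS by 0.70 ± 0.17 (adjusted p = 0.0190) on the log2 scale with NEO2734, and 2.9% of all genes were called. ATIC remained called without the 3 libraries that held genes of another line, 1 of which is DOHH2 NEO2734 replicate 3 (-1.03, adjusted p = 0.0372), and UMPS did not (-0.53, adjusted p = 0.160). The UMPS call was also lost without DOHH2 DMSO replicate 2 (adjusted p = 0.114), DOHH2 DMSO replicate 3 (adjusted p = 0.0806) or DOHH2 NEO2734 replicate 3 alone (adjusted p = 0.159). In DOHH2 same-numbered libraries deviated together, and they were also of the same depth set. With the number as a block CTPS1 fell there as well (-0.67, adjusted p = 0.0298, against -0.66 and 0.0774 without it). No member was called with NEO2734 in OCILy10, TMD8 or Toledo, where 1.01%, 2.17% and 5.47% of all genes were. In Toledo these were 701 genes, and 82 without the 3 libraries that held genes of another line. In each of OCILy10, TMD8 and Toledo, 2 members had an unadjusted p under 0.05, against 1411, 1534 and 2180 of 12814 genes. DESeq2 called 1 member in OCILy10, UMPS. No member was called with OTX015 in any line by edgeR or DESeq2. Of all genes, 0.125% were called with OTX015 in DOHH2, 0.0702% in OCILy10, 0.39% in TMD8 and 3.09% in Toledo. In the same order, 2, 1, 3 and 0 members had an unadjusted p under 0.05, against 990, 970, 897 and 1757 of 12814 genes. With the depth set as a term, NEO2734 had 4 members called in DOHH2 (ATIC, UMPS, CTPS1 and GART, all lower, with 8.8% of all genes called), 2 in TMD8 (GART and CTPS1, both lower, with 6%) and 2 in Toledo (PAICS lower and IMPDH2 higher, with 12%). That fit was not run without the 3 libraries, and in the fit by group without them PAICS and IMPDH2 had log2 fold changes of -0.73 and 0.72 in Toledo (adjusted p = 0.921 and 0.740).

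**Figure D3:**
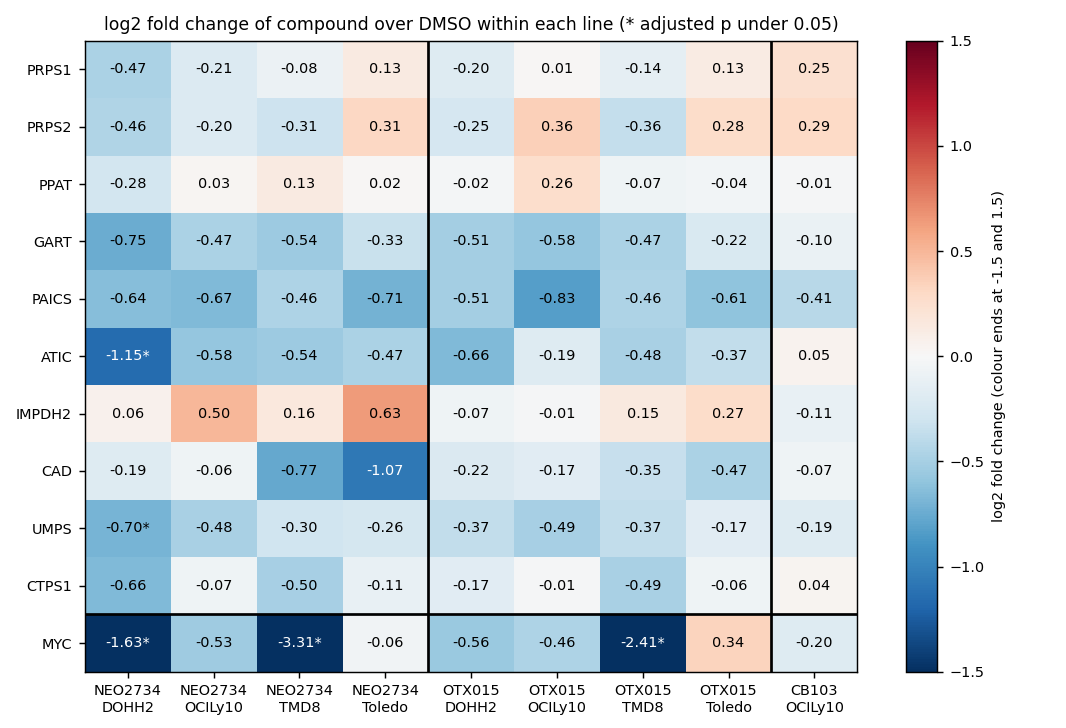
Log2 fold change of each gene, with MYC below, for NEO2734, OTX015 and CB103 over DMSO within each line, each from 3 libraries a group; an asterisk marks an adjusted p under 0.05. ATIC is below 0 in all 4 lines with both compounds, while MYC ranges from -3.31 in TMD8 to -0.06 in Toledo with NEO2734.

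Whether the effect of a compound differed between the lines was tested directly with an F-test over the 4 lines. No member differed for NEO2734, where 0.0156% of all genes did, or for OTX015, where 0% did. No member had an unadjusted p under 0.05 in either test, against 783 and 478 of all genes, and DESeq2 called no member in either. The 2 genes called for NEO2734 are not members. MYC, given beside the members, stood at 24.0, 19.7 and 19.1 CPM in TMD8 with NEO2734, against 226, 64.3 and 340 CPM with DMSO (log2 fold change -3.31 ± 0.49, adjusted p = 0.000201), and at 176, 147 and 216 CPM in Toledo with NEO2734, against 226, 152 and 183 CPM with DMSO (-0.06 ± 0.44). ATIC had log2 fold changes of -0.54 and -0.47 in TMD8 and Toledo. In the fit with the depth set as a term, MYC was at -1.67 in DOHH2 with NEO2734 (adjusted p = 0.00242). In OCILy10 it was at -0.601 in that fit (adjusted p = 0.346). ATIC was at -1.14 in DOHH2 and -0.573 in OCILy10 in the same fit. The averaged MYC change was -1.38 ± 0.22 with NEO2734 (adjusted p = 4.4e-05) and -0.77 ± 0.22 with OTX015 (adjusted p = 0.0196). Whether the members follow MYC was not tested.

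No member passed the test of NEO2734 against OTX015. In the direct comparison averaged over lines 0 members were called by edgeR and 0 by DESeq2, and 0.0312% of all genes were called. ATIC alone had an unadjusted p under 0.05, against 499 of all genes. Its log2 fold change of NEO2734 over OTX015 was -0.26, with a 95% interval of -0.48 to -0.04 (adjusted p = 1.00). The interval was -0.25 to 0.09 for UMPS, -0.36 to 0.06 for CTPS1, -0.46 to 0.31 for GART and -0.16 to 0.68 for IMPDH2, so differences of those sizes remain possible. Within single lines 0 members and 0% of all genes were called. In DOHH2 2 members had an unadjusted p under 0.05, against 288 of all genes. The other 3 lines had 0 members each, against 87 of all genes in OCILy10, 113 in TMD8 and 99 in Toledo. With CB103 in OCILy10, 0 members and 0% of all genes were called by edgeR, 0 members had an unadjusted p under 0.05 against 273 of all genes, and DESeq2 called 0 members. The members' log2 fold changes with CB103 ran from -0.41 for PAICS (95% interval -1.72 to 0.89) to 0.29 for PRPS2 (-0.28 to 0.87), and MYC was at -0.20. ATIC was at 273, 304 and 464 CPM with CB103, against 339, 291 and 374 CPM with DMSO (log2 fold change 0.05, 95% interval -0.38 to 0.48). UMPS was at 98.2, 97.0 and 90.3 CPM with CB103, against 103, 106 and 119 CPM with DMSO (-0.19 ± 0.17, adjusted p = 1.00). Replicate 2 of CB103 is the library that held genes of Toledo. Without the 3 libraries of that kind 0 members and 0 of 13160 genes were called with CB103, and the members ran from -0.34 for PAICS to 0.21 for PRPS2.

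In DMSO, CTPS1, PRPS1, PRPS2, CAD, UMPS and PPAT differed in level between the lines by the F-test over the DMSO groups. These 6 of 10 members are near the background, since 48.1% of all genes were called by the same test. Without the 3 libraries that held genes of another line PPAT did not pass (adjusted p = 0.0511) and the other 5 did. Pairs of lines were then compared, in which 30.1% (DOHH2 over OCILy10), 28.5% (DOHH2 over TMD8), 23.5% (DOHH2 over Toledo), 20.8% (OCILy10 over TMD8), 15.9% (OCILy10 over Toledo) and 24.9% (TMD8 over Toledo) of all genes were called.

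CTPS1 averaged 89.9 ± 4.65 CPM in TMD8, 180 ± 27.4 in OCILy10, 202 ± 20.9 in DOHH2 and 229 ± 56.4 in Toledo (SD, n = 3 each). Its step between OCILy10 and TMD8 passed (log2 1.00 ± 0.21, adjusted p = 0.000635), and the neighbours above it did not differ beyond their spread. PRPS1 averaged 86.4 ± 14.8 CPM in OCILy10, 123 ± 12.9 in DOHH2, 153 ± 12.8 in TMD8 and 249 ± 102 in Toledo, where only the step between TMD8 and Toledo passed (-0.69 ± 0.23, adjusted p = 0.0278). PRPS2 kept the same order, from 79.3 ± 12.3 CPM in OCILy10 to 186 ± 84.0 in Toledo, and no single step passed, although OCILy10 over Toledo did (-1.23 ± 0.28, adjusted p = 0.00294). The large SDs in Toledo come from replicate 2, the library that held genes of OCILy10, and without the 3 libraries of that kind the TMD8 over Toledo values were -0.96 for PRPS1 (adjusted p = 0.000745) and -0.80 for PRPS2 (adjusted p = 0.0304).

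CAD averaged 67.8 ± 11.8 CPM in DOHH2, 150 ± 40.6 in TMD8, 190 ± 162 in Toledo and 311 ± 183 in OCILy10. No step between neighbours passed, and DOHH2 over OCILy10 did (-2.19 ± 0.52, adjusted p = 0.00166). The place of Toledo in this order turned on replicate 2: DOHH2 over Toledo was -1.49 (adjusted p = 0.0341) with it and -0.49 (adjusted p = 0.514) without the 3 libraries, and OCILy10 over Toledo was 0.71 (adjusted p = 0.378) with it and 1.75 (adjusted p = 0.00751) without them. PPAT was lowest in TMD8 at 71.9 ± 15.5 CPM, against 115 ± 18.1 in OCILy10 and 113 ± 5.38 in DOHH2, and UMPS was 77.7 ± 7.79 CPM in TMD8 against 109 ± 8.70 in OCILy10. Both F-tests passed narrowly (adjusted p = 0.0433 for PPAT and 0.0439 for UMPS), and leaving out 1 library ended the call for PPAT in 8 of 12 cases (adjusted p up to 0.262; the exceptions were Toledo replicates 2 and 3, TMD8 replicate 3 and OCILy10 replicate 3) and for UMPS in 9 of 12 (adjusted p up to 0.129; the exceptions were OCILy10 replicate 1, DOHH2 replicate 1 and Toledo replicate 2). ATIC ranged only from 301 ± 24.9 CPM in Toledo to 335 ± 41.4 in OCILy10 (adjusted p = 0.924), and IMPDH2 and PAICS had adjusted p of 0.982 and 0.971. GART was highest in Toledo at 285 ± 129 CPM. Its F-test did not pass in the fit by group (adjusted p = 0.0954). It passed without Toledo DMSO replicate 2 (adjusted p = 0.0489), with the depth set as a term (adjusted p = 7.7e-06), with the replicate block (adjusted p = 0.0179), and in deep or shallow libraries alone (adjusted p = 0.0191 and 0.0453). DOHH2 over Toledo passed for GART in the fit by group (adjusted p = 0.0487) and with the block (-0.97, adjusted p = 0.00960), and TMD8 over Toledo with the block (-0.76, adjusted p = 0.0386).

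Levels per kb divide by the joined length of all annotated exons of a gene, such as 11.5 kb for CTPS1 and 2.77 kb for IMPDH2. That length can exceed the length of the transcripts present, so the order between genes depends on the annotation. Per kilobase of exon, IMPDH2 had a median level over the 39 libraries of 96.7 CPM per kb, followed by ATIC at 62.2, PRPS1 at 46.6, PAICS at 37.5 and PRPS2 at 37.2 CPM per kb. GART and PPAT were at 19.1 and 18.5 CPM per kb, and the pyrimidine enzymes CTPS1, CAD and UMPS at 15.3, 13.7 and 10.1 CPM per kb. These medians pool the lines, and the order differed within them. In Toledo with DMSO, PRPS1 averaged 94.8 CPM per kb and IMPDH2 89.0 CPM per kb. In OCILy10 with DMSO, CAD averaged 36.9 CPM per kb, above PRPS1 at 32.9, GART at 23.4 and PPAT at 21.1 CPM per kb. Of the pair IMPDH2 and IMPDH1, its isoenzyme, IMPDH2 made up 94.8 ± 2.40% of the summed level per kb in TMD8 with NEO2734, against 91.9 ± 1.34% with DMSO, and 94.7 ± 2.52% in OCILy10 with NEO2734, against 90.4 ± 1.38% with DMSO (SD, n = 3 each). IMPDH1 itself had an averaged log2 fold change of -0.73 ± 0.29 with NEO2734 (adjusted p = 0.0728). CTPS1 made up 88.1 ± 4.44% of the summed level per kb of CTPS1 and its isoenzyme CTPS2 in OCILy10 with NEO2734, against 79.5 ± 4.36% with DMSO, and 70.2 ± 11.8% in TMD8 with NEO2734, against 60.8 ± 1.64% with DMSO. These shares are given for the 2 lines with none of the 3 libraries in these groups, and were not tested. The size of a share also depends on the joined exon lengths, which were 11.5 kb for CTPS1 and 5.51 kb for CTPS2.

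Beyond the 10 members, 35 other genes of nucleotide synthesis and salvage were listed, of which 33 were in the table and all 33 were tested; ADSS1 and CDA were not analysed here. With NEO2734, 8 of the 33 fell and 1 rose, with a median log2 fold change of -0.27, against 11.2% of all genes called lower and 9.29% called higher. The largest falls were of CTPS2, the second cytidine triphosphate synthetase (-1.18 ± 0.26, adjusted p = 0.00134), UCK2, which salvages uridine and cytidine (-1.09 ± 0.12, adjusted p = 1.0e-07), PFAS, a purine enzyme between GART steps (-1.04 ± 0.29, adjusted p = 0.0107), NME1, a nucleoside diphosphate kinase (-0.89 ± 0.15, adjusted p = 9.3e-05), and DHODH, which makes orotate (-0.74 ± 0.21, adjusted p = 0.0130). CTPS2 and DHODH were at low levels. CTPS2 averaged 5.95 CPM in DOHH2 with NEO2734, with 1 library at 3.18 CPM, against 17.4 CPM with DMSO. DHODH averaged 6.86 CPM in TMD8 with NEO2734, against 12.8 CPM with DMSO. PFAS was at 28.6, 31.7 and 129 CPM in Toledo with DMSO, so its mean there leaned on 1 library. With NEO2734 it was at 18.6 to 25.7 CPM in that line. Whether PFAS stays called without the 3 libraries that held genes of another line is not given here. RRM2B, a ribonucleotide reductase subunit that p53 is known to induce, was the gene that rose (0.64 ± 0.14, adjusted p = 0.00129). UCK2 was at 28.6 to 35.3 CPM in DOHH2 and 17.5 to 23.1 CPM in TMD8 with NEO2734, against 82.1 to 99.6 CPM and 52.1 to 68.8 CPM with DMSO, without overlap. In OCILy10 UCK2 was at 44.8 to 62.4 CPM with NEO2734, against 87.3 to 89.7 CPM with DMSO, and in Toledo the groups overlapped, at 92.6 to 122 CPM with NEO2734, against 107 to 182 CPM with DMSO. With OTX015, CTPS2 (-1.16 ± 0.26, adjusted p = 0.00351), NME1 (-0.65 ± 0.15, adjusted p = 0.00488) and UCK2 (-0.53 ± 0.11, adjusted p = 0.00250) fell, RRM2B (0.56 ± 0.14, adjusted p = 0.00808) and RRM2, the S phase subunit of the reductase (0.51 ± 0.17, adjusted p = 0.0438), rose, and the median was -0.12, against 6.06% of all genes called lower and 5.53% higher. RRM2 averaged 886 CPM in DOHH2 and 880 CPM in OCILy10 with OTX015, against 413 and 468 CPM with DMSO. In TMD8 it averaged 190 against 146 CPM and in Toledo, where it was lower, 218 against 276 CPM, and in both the groups overlapped. Of the 33 genes the number called lower with NEO2734 was 10 with the depth set as a term and 5 without the 3 libraries that held genes of another line, and with OTX015 it was 6 and 3. Of all genes, 16.6% were called lower with NEO2734 and 11% with OTX015 with the depth term, and 1069 and 627 of 13160 genes without the 3 libraries.

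**Figure D4:**
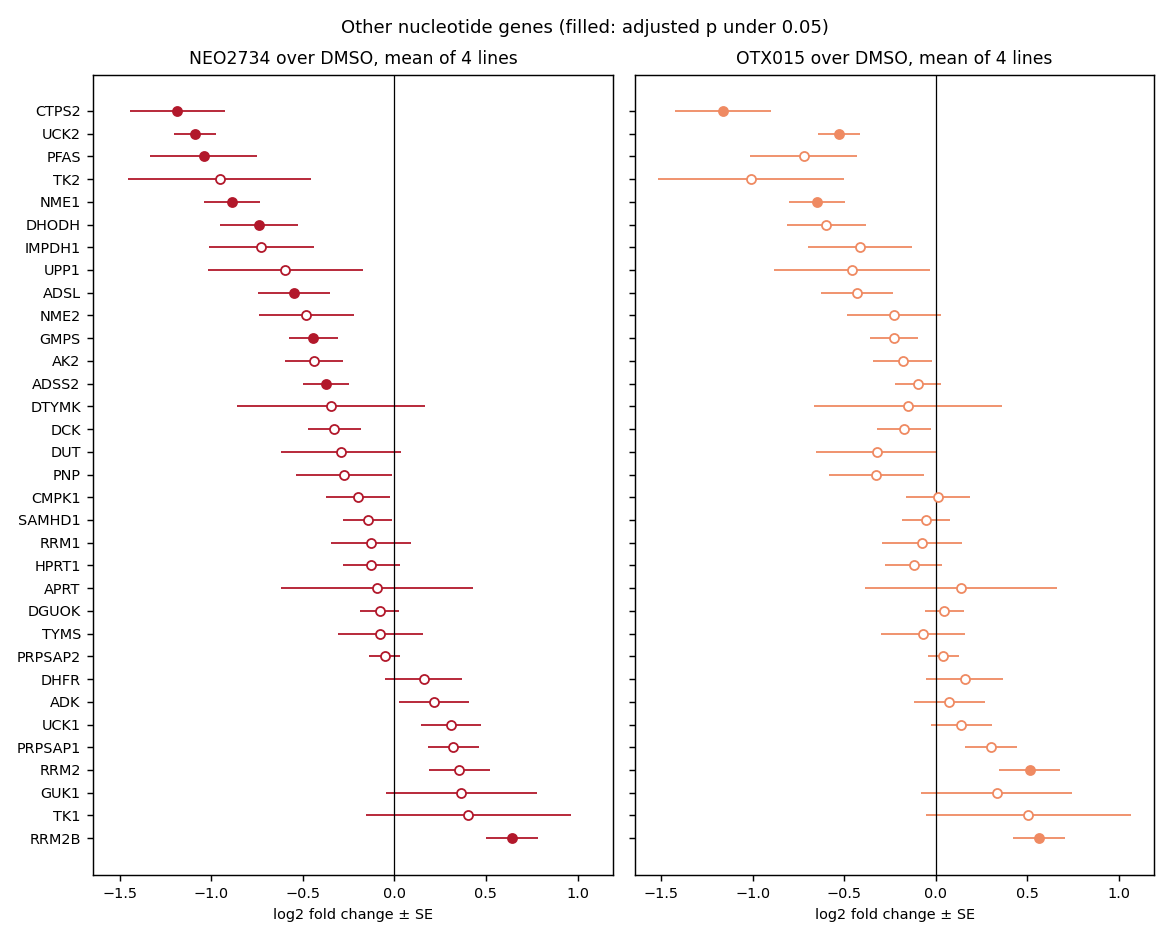
Log2 fold change ± SE of the 33 other nucleotide genes with NEO2734 (left) and OTX015 (right) over DMSO, averaged over the 4 lines and ordered by the NEO2734 value; filled points have an adjusted p under 0.05. CTPS2 and UCK2 lie lowest with NEO2734 at -1.18 and -1.09, and RRM2B highest at 0.64.

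Over the 13 group means, ATIC followed UMPS and PAICS (Pearson r of log2 CPM = 0.83 and 0.85), and PAICS followed UMPS (r = 0.84), while PPAT and PAICS, which share their start region, had r = 0.18. PRPS1 and PRPS2 had r = 0.96, for which shared reads of close copies are a limit. IMPDH2 had values between -0.39 and 0.17 with the other members. Among all genes tested with a symbol, those most like ATIC were DDN (r = 0.99), RPIA (0.97) and COA7 (0.96), and those most like GART were CCT3 (0.98), ADH5 (0.97) and FUNDC2 (0.97). For IMPDH2 they were PPME1 (0.82), CCNYL1 (0.80) and ABHD2 (0.79). The 13 points share lines, DMSO groups and the mixture of depths, so these values are descriptions of likeness over 13 groups only.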

How the data were processed

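The authors deposited whole-number counts per gene, and the unit used here is the count; per the labels, RNA was taken with Trizol and libraries were made with a TruSeq RNA kit. Per the submitters' processing notes, STAR, edgeR and the build hg38 were used; the sources used here do not give their versions, the counting program, the annotation or the strand setting. A second deposited table was equal in 38 columns and differed in 1, OCILy10 CB103 replicate 1, which served as an alternative. Symbols were attached to 15590 of 15808 IDs, with coordinates and exon lengths from GENCODE 29 on GRCh38, the sequence build of hg38.

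Genes were filtered with filterByExpr by group and fitted in R 4.3.3 with edgeR 4.0.16 (TMM scaling, quasi-likelihood, 1 coefficient for each of 13 groups, 26 residual degrees of freedom). A gene was called when its p, adjusted by Benjamini-Hochberg over all 12814 genes, was under 0.05, and tests were two-sided. CPM are counts relative to the TMM-scaled library total. The pipeline was tested on simulated data. Alternatives were RLE scaling, library totals, no filter, DESeq2 1.42.0, the replicate number as a block, the depth set as a term, each depth set alone, the other column, leaving out the 3 libraries that held genes of another line, and leaving out each library. The 39 pairs of libraries within groups differed by 4.64 to 80.6 times the sampling noise (chi-square over its degrees of freedom), so none was counted as a repeat. Same-numbered libraries deviated together in 7 of 13 comparisons within lines (every correlation at least 0.261) and not in the other 6 (lowest -0.758). In all 7, same-numbered libraries were of the same depth set. In the other 6, except OTX015 over DMSO in Toledo, the deep libraries did not carry the same numbers. Pairing by number thus largely cannot be told apart from depth.

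The members and lists were chosen with earlier results of these data known. The rule for named genes took all 10 members and MYC in any comparison, of the other nucleotide genes up to 5 of the largest size called in each direction, and the 3 genes most like the members with the 2 largest called falls and the highest value. IMPDH1 falls outside it and is given as the isoenzyme of IMPDH2. Of the marker list, 1 gene is not reported here.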

Additional observations from a re-analysis of the deposited data

How the results depend on the processing

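No direction of a called member reversed under any alternative run. Of the members called with NEO2734 averaged over lines, 4 in the report, 2 were called with no filter on low counts and 0 in deep libraries alone, where 727 of all genes were called, and 2 to 5 when 1 library was left out. With OTX015, 2 in the report, 4 were called with the replicate block (ATIC, UMPS, GART and PAICS), 4 with the depth set as a term and 0 in deep libraries alone; leaving out 1 library gave 2 each time. With NEO2734 in DOHH2, 2 in the report, 4 were called with the depth set as a term, 0 in deep libraries alone, and 1 each in shallow libraries alone, without the 3 libraries that held genes of another line and with the other deposited column, and 1 to 2 when 1 library was left out. NEO2734 had 1 member called in OCILy10 by DESeq2, 2 in TMD8 and 2 in Toledo with the depth set as a term, and 1 in Toledo in shallow libraries alone, against 0 in the report. The DMSO level differed for 3 members in shallow libraries alone, against 6, and for 4 to 7 when 1 library was left out. Deep libraries alone leave 2 residual degrees of freedom and shallow ones 11; the cause of the other differences was not tested. Same-numbered libraries deviated together in some comparisons only, and there they were of the same depth set. With the replicate block IMPDH2 was also called with NEO2734 averaged over lines (0.36, adjusted p = 0.0418), and no call of a compound's effect on a member was lost under the block. For the other comparisons of compounds, leaving out 1 library gave 0 members each time. Of 4060 values of single members under an alternative, 3870 stayed on their side of the threshold with the same direction or a change of sign within 1 SE, 44 came to pass it, 83 no longer passed it, and 63 that passed in neither fit changed sign by more than 1 SE. Counts over all genes also moved. Where none is given for a fit, as for the replicate block and for no filter, the number of members called cannot be set against all genes. With the depth set as a term, OTX015 averaged over lines had 2582 genes called against 1484 in the report, NEO2734 had 1128 against 372 in DOHH2, 627 against 130 in OCILy10, 769 against 278 in TMD8 and 1542 against 701 in Toledo, and OTX015 had 152 against 16, 109 against 9, 236 against 50 and 948 against 396 in the same lines. Without the 3 libraries that held genes of another line, Toledo had 82 genes called with NEO2734 and 8 with OTX015, and DOHH2 had 197 with NEO2734. Deep libraries alone gave 62 genes for OTX015 averaged over lines, and shallow ones 951. DESeq2 called 27 genes with CB103 and the other deposited column 16, against 0 in the report, and DESeq2 called 13 for NEO2734 over OTX015 averaged over lines, against 4, and 96 for the difference of the NEO2734 effect between lines, against 2. In DMSO, OCILy10 over Toledo had 3895 genes called without the 3 libraries, against 2033. At the lowest, a member rested on 44 counts in a library, for CAD.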
